A study of Mus musculus with 28 samples.

Results

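The peroxisome proliferator-activated receptors and the proteins that work with them were followed as 9 genes in mouse stomach: the receptors Ppard, Ppara and Pparg, the retinoid X receptors Rxra, Rxrb and Rxrg, and the coregulators Ncor1, Ncoa1 and Med1. They were picked by gene symbol, and all 9 of 9 were found among the 49492 symbols of the count table. The libraries, 28 in all, came from polyadenylated RNA of epithelium scraped off the corpus, where the stomach makes its acid. The villin-PPARD groups, mice carrying a PPARD transgene named for the villin promoter, held 5 libraries at 10 weeks of age, 4 at 25 weeks and 5 at 55 weeks. The WT groups, their wild-type littermates, held 5, 4 and 5 libraries at the same ages. The labels give no transgene copy number, line or species of the PPARD sequence, and gene counts do not separate transgene reads from those of the mouse gene. The villin promoter is mainly known for driving genes in intestinal epithelium. The total count per library ran between 10982888 and 30891108.

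PPARs are nuclear receptors that are switched on by fatty acids and their derivatives. Each binds DNA as a pair with a retinoid X receptor, at repeats of a short hexamer known as a half-site. Without ligand the pair recruits corepressors such as NCoR1, and with ligand it recruits coactivators such as NCoA1 and the Mediator complex through MED1. PPARα is best known for fatty acid oxidation in liver and heart, PPARγ for fat cell formation, and PPARδ for fatty acid use in many tissues.

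Of the 9 genes, 8 passed the filter on low counts, as did 15812 genes in all. A gene is called changed where the quasi-likelihood test of edgeR gave a p under 0.05 after Benjamini-Hochberg adjustment over those 15812 genes. At 10 weeks 3 of the 8 were called between villin-PPARD and WT, with Ppard and Pparg higher and Ppara lower, beside 34.0% of all tested genes (2823 higher and 2557 lower). At 25 weeks 4 were called, with Ppard, Pparg and Med1 higher and Ppara lower, beside 39.6% of all tested genes (3318 higher and 2944 lower). At 55 weeks 5 were called, with Ppard, Ncoa1 and Med1 higher and Ppara and Rxra lower, beside 59.3% of all tested genes (5009 higher and 4371 lower). The share of the 8 members that was called was thus close to the share of all genes at each age.

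**Figure D1:**
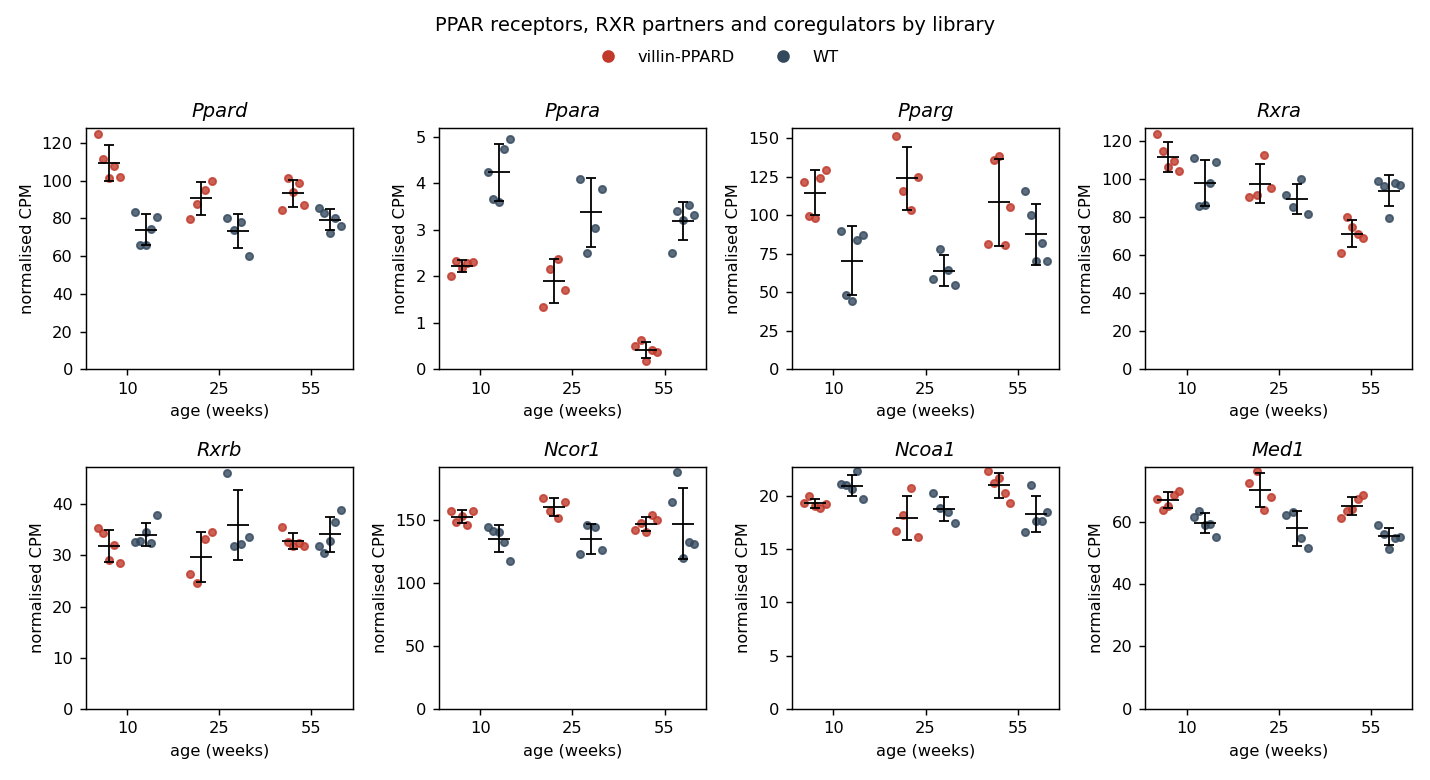
Normalised CPM (y axes from 0) of 8 genes by age in weeks (x axes), with villin-PPARD libraries left of WT libraries. Each point is 1 library, the wide bar the mean and the whiskers the SD. The 5 villin-PPARD libraries of 55 weeks had 0.192 to 0.637 CPM of Ppara, below every WT library.

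Counts are given as CPM, a gene's share of the counts of its library after TMM scaling, times 1000000. Levels per kilobase of exon placed Pparg above the other members in every group. In villin-PPARD mice of 10 weeks Pparg averaged 38.8 ± 4.96 CPM per kilobase, Rxra 20.4 ± 1.43, Ppard 14.6 ± 1.27 and Ncor1 11.9 ± 0.41 (SD, n = 5). In WT mice of 10 weeks Pparg averaged 23.9 ± 7.59 CPM per kilobase and Rxra 17.9 ± 2.20, and the libraries of these neighbours overlapped (SD, n = 5). They were followed in WT mice by Ncor1 at 10.5 ± 0.84, Ppard at 9.87 ± 1.09 and Rxrb at 8.57 ± 0.58 CPM per kilobase, each overlapping the next in the order. Ncoa1 and Ppara stood below these in every group, and Rxrg was lowest everywhere. The order of Ppard, Pparg and Rxra depended on the length used. Per kilobase of coding sequence Rxra averaged 69.8 and Pparg 46.6 CPM in WT mice of 10 weeks. In villin-PPARD mice of 25 weeks Rxra averaged 69.6 and Pparg 81.7 CPM by that length. Per kilobase of all exons, Ppard made up 27.2% ± 2.78 of the summed PPAR level in villin-PPARD mice and 29.3% ± 4.93 in WT mice at 10 weeks (SD, n = 5). Per kilobase of coding sequence, it made up 51.9% ± 3.54 in villin-PPARD mice and 53.97% ± 5.70 in WT mice at 10 weeks (SD, n = 5). Ppara was the smallest PPAR by either length, with at most 3.3% of the summed level as a group mean.

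The promoters of the 3 receptors are shown because Ppard and Pparg were called higher together at 10 and 25 weeks while Ppara was called lower. Each runs 5′ to 3′ over 250 bases before and 50 bases after a start site, from RefSeq on GRCm38.p6, and each lies on the plus strand. Capitals mark the GC box GGGCGG or its reverse complement CCGCCC, and the half-site AGGTCA. Pparg has more than one promoter in the table, and its first is printed.
Ppard, chr17:28232504-28232803: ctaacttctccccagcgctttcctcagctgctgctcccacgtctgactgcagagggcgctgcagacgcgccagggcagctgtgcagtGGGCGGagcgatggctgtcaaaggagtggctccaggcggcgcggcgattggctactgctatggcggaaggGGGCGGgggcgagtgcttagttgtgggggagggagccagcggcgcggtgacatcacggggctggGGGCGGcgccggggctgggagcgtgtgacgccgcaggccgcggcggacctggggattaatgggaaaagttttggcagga
Ppara, chr15:85735526-85735825: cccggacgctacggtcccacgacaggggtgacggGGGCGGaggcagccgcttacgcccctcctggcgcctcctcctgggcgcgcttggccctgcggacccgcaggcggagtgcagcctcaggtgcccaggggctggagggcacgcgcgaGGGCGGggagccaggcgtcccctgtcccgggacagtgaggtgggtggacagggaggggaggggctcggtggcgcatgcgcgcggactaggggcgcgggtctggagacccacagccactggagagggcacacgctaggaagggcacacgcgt
Pparg, chr6:115360894-115361193: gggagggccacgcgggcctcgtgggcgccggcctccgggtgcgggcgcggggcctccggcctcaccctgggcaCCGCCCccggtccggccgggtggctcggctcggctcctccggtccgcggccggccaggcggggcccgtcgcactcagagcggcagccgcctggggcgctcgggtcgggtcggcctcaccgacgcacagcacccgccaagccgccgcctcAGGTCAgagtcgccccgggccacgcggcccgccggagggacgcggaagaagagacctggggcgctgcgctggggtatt
The Ppard window held 3 GC boxes, the Ppara window 2 and the Pparg window 1, and a GC box stood in 35.7% of 32851 promoters of this length, either strand counted. The Pparg window alone of these 3 held a half-site, whose first base stood at position -28 from the start site, and 16.3% of all promoters held one on either strand. The direct repeat of that half-site with 1 base between, the form that PPAR and RXR bind, was in none of the 3 windows and in 0.04% of all promoters.

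Ppard (ENSMUSG00000002250, chromosome 17, 28232700 to 28301474, GRCm38) is the mouse gene of the receptor that names the transgene, so its counts come first. Whether they include transgene reads cannot be told, as the species of the transgene is not given. At 10 weeks it had 125, 112, 101, 108 and 102 CPM in the villin-PPARD libraries, against 83.6, 66.1, 65.7, 74.6 and 80.6 CPM in the WT libraries. Every villin-PPARD library lay above every WT library. The 25-week libraries had 79.7, 87.8, 95.2 and 99.6 CPM in villin-PPARD and 80.5, 73.7, 78.3 and 60.3 CPM in WT mice, and 1 villin-PPARD library lay below the highest WT library. The 55-week libraries had 84.7, 102, 93.8, 98.9 and 87.2 CPM in villin-PPARD and 85.6, 83.1, 72.2, 80.4 and 75.9 CPM in WT mice, again with an overlap of 1 villin-PPARD library. The Ppard log2 differences, villin-PPARD minus WT, were 0.56 ± 0.09, 0.31 ± 0.10 and 0.23 ± 0.09 (SE) at 10, 25 and 55 weeks, with edgeR adjusted p of 2.55e-05, 0.0183 and 0.0307. The rise was therefore 1.48-fold, 1.24-fold and 1.17-fold in turn. An exact permutation test of Ppard gave p of 0.00794, 0.0571 and 0.0159 at 10, 25 and 55 weeks. Adjusted over the ages, these were 0.0238, 0.0571 and 0.0238, so the 25-week difference missed this test. With 4 libraries per group at 25 weeks, the smallest p that the permutation test could give was 0.0286. The change of the genotype difference between 55 and 10 weeks was -0.33 ± 0.13 for Ppard (edgeR adjusted p = 0.0443), which rests on the scaling, since scaling by library size alone gave 0.03 (adjusted p = 0.879). That call was also lost under the replicate block (adjusted p = 0.0833), without WT replicates 2 and 3 of 10 weeks (-0.21, adjusted p = 0.247) and with 12 of 20 single libraries left out. Vil1, which encodes villin and whose promoter names the transgene, differed more, by 1.95 ± 0.19, 2.07 ± 0.21 and 3.28 ± 0.20 on the log2 scale (SE; edgeR adjusted p = 6.55e-09, 2.24e-08 and 6.72e-14). Whether p-values measure more than the spread between these libraries depends on each being a separate mouse, as the design text of 4 to 5 mice per group says.

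Scaling by library size alone moved the median of all genes by 0.04, 0.16 and 0.40 on the log2 scale for the genotype difference at 10, 25 and 55 weeks, so the values here are differences relative to the other genes. WT replicates 2 and 3 of 10 weeks were more alike than any other pair of a group, with a chi-square per degree of freedom of 4.26 between their counts, against 15.1 to 169 for the other pairs. Column names put replicates 1 to 3 of 10 weeks and most 25-week libraries in a first library group. The 55-week libraries and the other 10-week ones are in a second. The Ppard difference at 10 weeks was 0.65 on the log2 scale within the first library group and 0.44 within the second (adjusted p = 0.0587).

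Ppara (ENSMUSG00000022383, chromosome 15, 85734983 to 85802819, GRCm38), the receptor of fatty acid oxidation, was called lower in villin-PPARD mice at every age. At 10 weeks it had 2.02, 2.34, 2.18, 2.28 and 2.31 CPM in villin-PPARD libraries, against 4.24, 3.66, 3.61, 4.74 and 4.96 CPM in WT libraries. By 25 weeks the values were 1.34, 2.17, 2.38 and 1.71 CPM in villin-PPARD and 4.10, 2.50, 3.04 and 3.88 CPM in WT mice. By 55 weeks they were 0.513, 0.637, 0.192, 0.410 and 0.366 CPM in villin-PPARD and 2.50, 3.40, 3.21, 3.53 and 3.32 CPM in WT mice. No villin-PPARD library reached the lowest WT library of its age at any of the 3 ages. The log2 differences of Ppara were -0.92 ± 0.19, -0.84 ± 0.22 and -2.91 ± 0.22 (SE), with edgeR adjusted p of 0.000411, 0.00320 and 2.98e-12. The level was thus 1.89-fold, 1.79-fold and 7.50-fold lower. These levels rest on few reads: the 5 villin-PPARD libraries of 55 weeks held 62 Ppara counts in all, which put the summed level at 0.418 CPM with an exact 95% Poisson interval of 0.321 to 0.536 CPM. The 5 WT libraries of 55 weeks held 264 counts, or 3.18 CPM with an interval of 2.81 to 3.59 CPM. Intervals cover counting error only.

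The Ppara difference was larger at 55 weeks than at the earlier ages. Its change between 55 and 10 weeks was -1.99 ± 0.29 and between 55 and 25 weeks -2.07 ± 0.31 on the log2 scale (SE; edgeR adjusted p = 3.04e-06 and 8.29e-06), while between 25 and 10 weeks it was 0.08 ± 0.29 (edgeR adjusted p = 0.957). Within villin-PPARD mice Ppara was 5.24-fold lower at 55 than at 10 weeks and 4.48-fold lower at 55 than at 25 weeks. In WT mice its log2 change was -0.40 ± 0.19 between 55 and 10 weeks and did not pass the test (edgeR adjusted p = 0.148).

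In scraped tissue, fewer cells of a type and less RNA per cell cannot be told apart. A list of 12 parietal cell markers, which include the acid pump genes Atp4a and Atp4b, moved with Ppara. Its members were called lower for 6, 7 and 9 of 12 genes at 10, 25 and 55 weeks and higher for 0, 1 and 2. The summed marker level had a median of 13146 CPM (11971 to 14365) in villin-PPARD and 19669 CPM (18169.6 to 20578) in WT mice at 10 weeks. At 25 weeks it was 10047 CPM (6799 to 12373) in villin-PPARD and 15977 CPM (14692 to 21172) in WT mice, and at 55 weeks 1881 CPM (1569 to 2219) in villin-PPARD and 10839 CPM (8709 to 12812) in WT mice. The part of these cells in the Ppara result was not tested. Other lists moved at 55 weeks too. Of 10 chief cell markers 8 were tested, 7 of them called lower and 0 higher, and they summed to a median of 884 CPM in villin-PPARD and 73806 CPM in WT mice. Of 10 pit cell markers 7 were called lower and 2 higher, and they summed to 58154 CPM in villin-PPARD and 211059 CPM in WT mice. Endocrine cell markers were called lower for 7 of 9 genes and higher for 0. At the same age 6 of 6 tested T and NK cell markers and 5 of 6 tested B and plasma cell markers were called higher. So were 9 of 12 macrophage markers, with 0 lower, and 5 of 8 neck cell and metaplasia markers, with 2 lower. Of all tested genes 59.3% were called at 55 weeks.

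**Figure D2:**
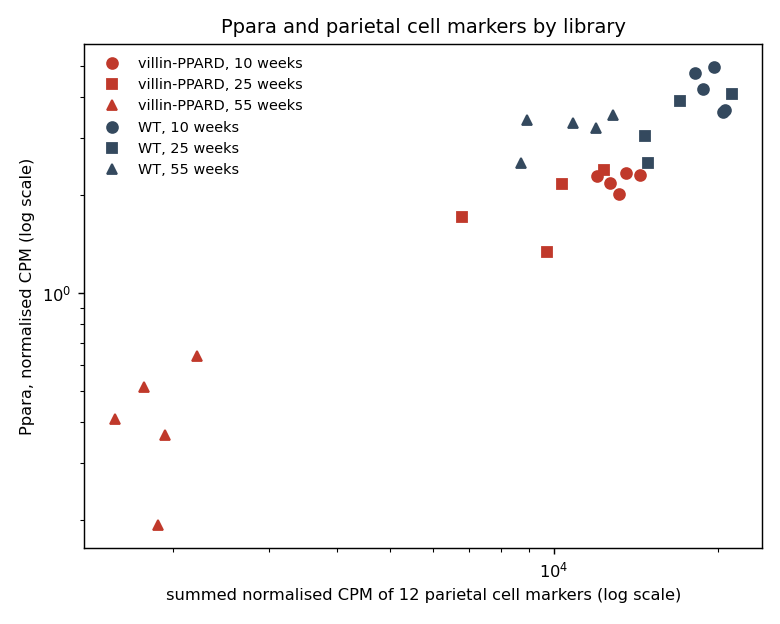
Ppara (y axis, normalised CPM) against the summed level of 12 parietal cell markers (x axis, normalised CPM), both on log scales, 1 point per library. Red marks villin-PPARD and dark blue WT, circles 10 weeks, squares 25 weeks and triangles 55 weeks. The 5 villin-PPARD libraries of 55 weeks stood apart at marker sums of 1569 to 2219 CPM, against 6799 CPM or more in the other libraries.

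Pparg (ENSMUSG00000000440, chromosome 6, 115360951 to 115490399, GRCm38), the receptor of fat cell formation, was called higher in villin-PPARD mice at 10 and 25 weeks. At 10 weeks it had 122, 99.6, 98.1, 124 and 129 CPM in villin-PPARD libraries, against 89.5, 48.0, 44.4, 83.7 and 87.4 CPM in WT libraries. The lowest WT values were those of replicates 2 and 3, the pair that was most alike. In the 25-week libraries Pparg stood at 151, 115, 103 and 125 CPM in villin-PPARD and 58.7, 78.1, 64.5 and 54.8 CPM in WT mice, and at both ages the groups did not overlap. In the 55-week libraries it stood at 81.1, 136, 139, 80.4 and 106 CPM in villin-PPARD and 115, 100, 70.2, 81.9 and 70.1 CPM in WT mice, which overlapped. The log2 differences of Pparg were 0.70 ± 0.19, 0.95 ± 0.22 and 0.30 ± 0.19 (SE), with edgeR adjusted p of 0.00672, 0.00124 and 0.179. The 95% interval at 55 weeks ran from -0.09 to 0.70, and scaling by library size alone gave 0.69 (adjusted p = 0.000935). Without WT replicates 2 and 3, an alternative chosen after seeing the data, the 10-week difference was 0.39 (adjusted p = 0.133), and within the second library group it was 0.57 (adjusted p = 0.230). The difference of Pparg between genotypes was not called to change with age (edgeR adjusted p = 0.278 between 55 and 10 weeks, 0.0958 between 55 and 25 weeks).

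Fat cells are the best known source of Pparg, so their markers were read beside it. Of 10 adipocyte markers only Cidec and Cidea passed the filter on low counts, and both were called higher at 10 and 25 weeks. The Cidec call was lost at 10 weeks without WT replicates 2 and 3 (adjusted p = 0.0639). At 25 weeks it was lost without a filter (adjusted p = 0.0624). Retn and Cfd had 0 counts in every library. Adipoq held 0 counts in villin-PPARD mice at 10 and 25 weeks and 1 count in WT mice at 10 weeks, and Plin1 had at most 1 count in any library. The list summed to 34.2 to 51.6 CPM in villin-PPARD and 15.5 to 26.0 CPM in WT mice at 10 weeks, most of which was Cidec, a lipid droplet gene of fat cells, with 35.3 ± 6.53 CPM in villin-PPARD and 20.1 ± 5.08 CPM in WT mice at 10 weeks (SD, n = 5). Macrophages also use Pparg, and their 12 markers summed to medians of 103 CPM (88.5 to 106) in villin-PPARD and 61.8 CPM (34.7 to 93.0) in WT mice at 10 weeks, with 2 of 12 called higher. At 55 weeks, when Pparg was not called, the macrophage sum was 351 CPM in villin-PPARD and 115 CPM in WT mice, with 9 of 12 called higher. The part of fat cells and macrophages in the Pparg result was not tested.

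Ratios of raw counts within a library need no scaling between libraries, and they set Ppara apart from Pparg. There were 1.97 ± 0.30 Ppara counts per 100 Pparg counts in villin-PPARD and 6.36 ± 1.44 in WT mice at 10 weeks (SD, n = 5). The ratio was 1.61 ± 0.61 in villin-PPARD and 5.50 ± 1.88 in WT mice at 25 weeks (SD, n = 4), and 0.419 ± 0.187 in villin-PPARD and 3.84 ± 1.07 in WT mice at 55 weeks (SD, n = 5). The groups did not overlap at any age, with 1.66 to 2.35 in villin-PPARD and 4.74 to 8.12 in WT mice at 10 weeks. Pparg and Ppard were not set apart in this way at 10 and 55 weeks, where the ranges overlapped, with 89.2 to 127 Pparg counts per 100 Ppard counts in villin-PPARD and 67.6 to 112 in WT mice at 10 weeks. At 25 weeks they did not overlap, with 109 to 190 in villin-PPARD and 72.9 to 106 in WT mice.

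**Figure D3:**
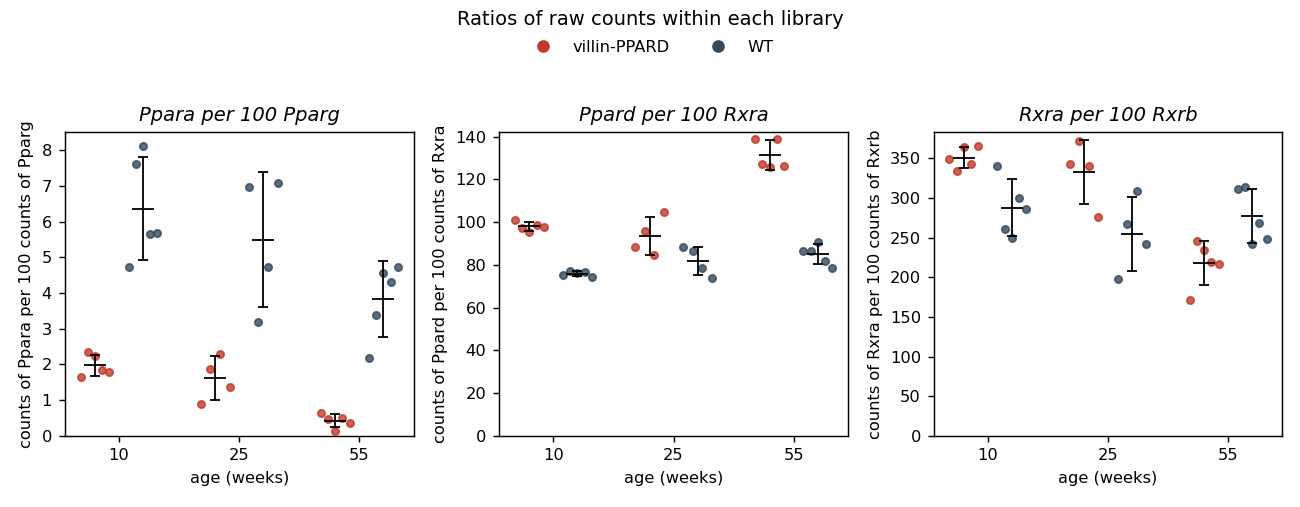
Ratios of raw counts within each library (y axes from 0) by age in weeks (x axes), villin-PPARD left of WT. Points are libraries, wide bars means and whiskers SDs. Ppard per 100 Rxra counts ran from 126 to 139 in villin-PPARD and from 78.5 to 90.7 in WT mice at 55 weeks.

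Among the retinoid X receptors, which pair with PPARs and with many other nuclear receptors, Rxra held most of the RXR level. It made up 61.1% to 71.8% of the summed level per kilobase of exon as group means. Rxra (ENSMUSG00000015846, chromosome 2, 27676440 to 27762957, GRCm38) was called lower in villin-PPARD mice at 55 weeks and was not called at 10 or 25 weeks. In 55-week libraries it had 61.0, 79.9, 74.7, 71.2 and 69.0 CPM in villin-PPARD libraries, against 98.8, 96.0, 79.6, 98.1 and 96.6 CPM in WT libraries. WT replicate 3 was the only WT library of that age to meet the villin-PPARD range. The log2 differences of Rxra were 0.19 ± 0.09, 0.12 ± 0.10 and -0.40 ± 0.09 (SE; edgeR adjusted p = 0.112, 0.356 and 0.000486), and the 55-week value was -0.00 (adjusted p = 0.971) with scaling by library size alone, where the median of all genes stood at 0.43. With that scaling the 25-week difference was 0.29 (adjusted p = 0.0318), and limma-voom called the 10-week difference (0.23, adjusted p = 0.0199). Within villin-PPARD mice Rxra was 1.57-fold lower at 55 than at 10 weeks (edgeR adjusted p = 7.27e-07), and the change of the genotype difference was -0.59 ± 0.13 between 55 and 10 weeks and -0.52 ± 0.14 between 55 and 25 weeks on the log2 scale (SE; edgeR adjusted p = 0.000662 and 0.00514). Both of these changes missed the test under library-size scaling, where they were -0.24 and -0.29.

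The ratio of Ppard to Rxra counts was higher in villin-PPARD than in WT mice at 10 and 55 weeks. After TMM scaling the log2 difference at 55 weeks was 0.23 for Ppard and -0.40 for Rxra, so the ratio does not measure Ppard alone. There were 98.0 ± 1.99 Ppard counts per 100 Rxra counts in villin-PPARD and 75.9 ± 1.13 in WT mice at 10 weeks (SD, n = 5). At 25 weeks the ratio was 93.3 ± 8.87 in villin-PPARD and 81.8 ± 6.71 in WT mice (SD, n = 4), with ranges that overlapped. At 55 weeks it was 131 ± 6.89 in villin-PPARD and 84.9 ± 4.71 in WT mice (SD, n = 5). At 10 and 55 weeks no villin-PPARD library came down to the WT range.

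Rxrb (ENSMUSG00000039656, chromosome 17, 34031812 to 34038399, GRCm38) was not called by edgeR at any age. At 25 weeks, where it came closest, it had 26.3, 24.6, 33.1 and 34.6 CPM in villin-PPARD and 46.2, 31.8, 32.2 and 33.6 CPM in WT mice, and the groups overlapped. The log2 difference there was -0.28 ± 0.12 (SE, 95% interval -0.52 to -0.04, edgeR adjusted p = 0.0549). With scaling by library size alone it was -0.12 and was not called, while 4 alternatives called it lower. These were DESeq2 size factors (-0.30, adjusted p = 0.0376), the DESeq2 Wald test (-0.30, adjusted p = 0.0320), limma-voom (-0.29, adjusted p = 0.0263) and a term for the library group (-0.33, adjusted p = 0.0444). The last fit left out WT replicate 3 of 25 weeks. All its other 25-week libraries are in the first library group, so the term does not adjust the genotype difference there. At 10 and 55 weeks the intervals ran from -0.31 to 0.12 and from -0.27 to 0.15, and the 55-week difference was 0.35 with scaling by library size alone (adjusted p = 0.0127).

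Rxrg (ENSMUSG00000015843, chromosome 1, 167598384 to 167639623, GRCm38), the RXR of muscle and brain, did not pass the filter. It had 0 counts in all 9 villin-PPARD libraries of 10 and 25 weeks, where 3 counts over the group would have been 0.0313 and 0.0404 CPM. The WT libraries held 6 counts at 10 weeks and 9 at 25 weeks, of which 8 were in replicate 4 of 25 weeks. At 55 weeks 1 count was found in either genotype.

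Of the 3 coregulators, Med1 (ENSMUSG00000018160, chromosome 11, 98152154 to 98193293, GRCm38), the Mediator subunit that binds nuclear receptors, was called higher at 25 and 55 weeks. Its 25-week values were 72.4, 76.3, 63.7 and 67.8 CPM in villin-PPARD libraries, against 62.3, 63.0, 54.8 and 51.5 CPM in WT libraries. Its 55-week values were 61.4, 63.6, 64.0, 67.3 and 68.5 CPM in villin-PPARD and 59.1, 56.1, 51.4, 54.8 and 55.1 CPM in WT mice. The groups did not overlap at either age. The log2 differences of Med1 were 0.16 ± 0.07, 0.28 ± 0.08 and 0.23 ± 0.07 (SE; edgeR adjusted p = 0.0719, 0.00662 and 0.00577). With only the groups compared in the fit the 25-week call was lost (0.22, adjusted p = 0.143), and limma-voom called the 10-week difference as well (adjusted p = 0.0192).

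Ncoa1 (ENSMUSG00000020647, chromosome 12, 4247362 to 4477182, GRCm38), the steroid receptor coactivator SRC-1, was called higher at 55 weeks only. It had 22.4, 21.2, 21.6, 20.2 and 19.4 CPM in villin-PPARD libraries of 55 weeks, against 16.6, 20.99, 17.6, 17.7 and 18.5 CPM in WT libraries. WT replicate 2 stood within the villin-PPARD range. The log2 differences were -0.12 ± 0.08, -0.06 ± 0.09 and 0.20 ± 0.08 (SE; edgeR adjusted p = 0.235, 0.588 and 0.0273), and the last call was lost under the replicate block (adjusted p = 0.0689), without a filter (adjusted p = 0.0657), with only the groups compared (adjusted p = 0.116) and without any 1 of 6 libraries of 55 weeks, namely villin-PPARD replicate 1, 2 or 3 or WT replicate 1, 3 or 4. Its genotype difference changed by 0.32 ± 0.11 on the log2 scale between 55 and 10 weeks (edgeR adjusted p = 0.0215), a call that was lost under the replicate block (adjusted p = 0.0657) and without a filter (adjusted p = 0.118).

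Ncor1 (ENSMUSG00000018501, chromosome 11, 62316426 to 62458541, GRCm38), the nuclear receptor corepressor, was not called at any age. Its log2 differences were 0.17 ± 0.09, 0.25 ± 0.11 and -0.00 ± 0.09 (SE; edgeR adjusted p = 0.155, 0.0593 and 0.983), and with scaling by library size alone those of 25 and 55 weeks were 0.41 and 0.40 (adjusted p = 0.00352 and 0.000632). Limma-voom called the 25-week difference (0.23, adjusted p = 0.0479). At 10 and 25 weeks its villin-PPARD libraries nevertheless all lay above its WT libraries, with 146 to 157 CPM in villin-PPARD and 117 to 145 CPM in WT mice at 10 weeks, and 152 to 168 CPM in villin-PPARD and 122 to 146 CPM in WT mice at 25 weeks. At 55 weeks the WT libraries ran from 120 to 188 CPM, around the villin-PPARD range of 141 to 154 CPM. Of the windows of 75 bases in its transcripts, 0.558% were also found in another gene, the highest share among the 9 genes. Exons of genes on the opposite strand covered at most 0.793% of the exon bases of any member, the highest share being that of Ncoa1.

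**Figure D4:**
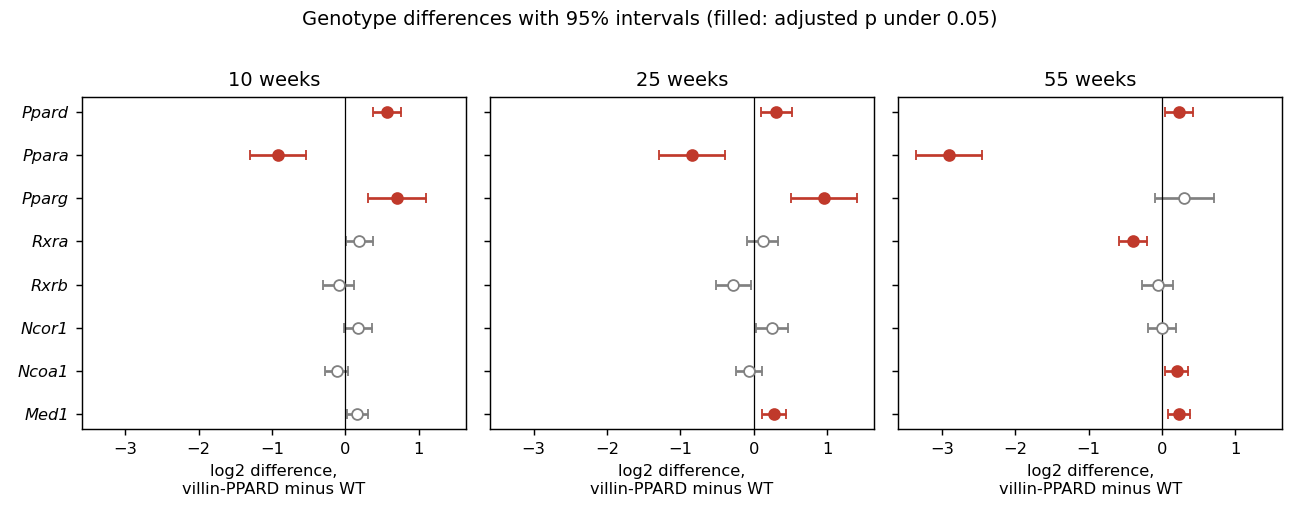
Log2 differences of villin-PPARD minus WT (x axes) for 8 genes (rows) at 10, 25 and 55 weeks, with 95% intervals. Filled red points passed the edgeR test at an adjusted p under 0.05, and open grey points did not. Ppara stood at -2.91 at 55 weeks, while the other 7 genes lay between -0.40 and 0.30.

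Between ages, edgeR called members in villin-PPARD mice and none in WT mice. In villin-PPARD mice edgeR called 0 of 8 between 25 and 10 weeks, beside 2.81% of all tested genes, where 1 had an unadjusted p under 0.05, DESeq2 called 1 and limma-voom 2. It called 3 between 55 and 10 weeks (Ppard, Ppara and Rxra, all lower), beside 51.7%. Between 55 and 25 weeks 3 were called, Ppara and Rxra lower and Ncoa1 higher, beside 47.4%. The Ncoa1 call there was lost without a filter (adjusted p = 0.113), with only the groups compared (adjusted p = 0.0813) and with a library-group term (adjusted p = 0.136), and the Rxra call with scaling by library size alone (adjusted p = 0.258). In WT mice edgeR called 0 of 8 in each of the 3 age comparisons, beside 0.0126% of all tested genes between 25 and 10 weeks, 12.7% between 55 and 10 weeks and 1.10% between 55 and 25 weeks, and 0, 2 and 1 of the 8 had an unadjusted p under 0.05 between 25 and 10, 55 and 10 and 55 and 25 weeks. In these WT comparisons the DESeq2 Wald test and limma-voom each called 1 member between 55 and 10 weeks and 0 in the other two. The change of the genotype difference was called for 4 of 8 members between 55 and 10 weeks, beside 36.4% of all tested genes, for 2 of 8 between 55 and 25 weeks, beside 28.9%, and for 0 of 8 between 25 and 10 weeks, beside 0.00632%, where 0 had an unadjusted p under 0.05 and neither DESeq2 nor limma-voom called any. The fall of Ppard with age in villin-PPARD mice was -0.23 ± 0.09 on the log2 scale (SE; edgeR adjusted p = 0.0340) and turned to 0.19 with scaling by library size alone, and the call was lost with a library-group term (adjusted p = 0.0844).

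Across the 28 libraries the genes whose log2 CPM followed a member most closely were read by Pearson's r, as a description of libraries that share genotype, age and library group. For Ppard these were Med15 (r = 0.94), another Mediator subunit, Pxn (r = 0.93), which encodes paxillin, and Rps6ka1 (r = 0.93), a ribosomal S6 kinase. Ppara was closest to Adssl1 (r = 0.97), a purine synthesis gene of muscle, and Pparg to Anxa3 (r = 0.97), an annexin. Rxra was closest to Gata4 (r = 0.93), a transcription factor of stomach epithelium. The best match was weaker for Med1 (Brip1os, r = 0.90), Ncor1 (Rbm27, r = 0.82), Rxrb (Mrpl28, r = 0.80) and Ncoa1 (Uck2, r = 0.73).

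The wider coregulator set was then read. Of 21 other coactivators, 9, 8 and 13 were called higher and 4, 3 and 3 lower in villin-PPARD mice at 10, 25 and 55 weeks, and the median log2 difference was 0.06, 0.18 and 0.34, beside -0.03, -0.01 and 0.03 over all tested genes. Of all tested genes 34.0%, 39.6% and 59.3% were called at these ages. With scaling by library size alone the coactivator medians of 25 and 55 weeks were 0.35 and 0.74, and 17 were called higher and 3 lower at 55 weeks. Helz2, a helicase described as a PPAR coactivator, rose at all ages, with 643 ± 92.0 CPM in villin-PPARD and 104 ± 18.8 CPM in WT mice at 10 weeks (SD, n = 5; log2 difference 2.63, edgeR adjusted p = 9.93e-15). Kat2a, a histone acetyltransferase, rose by 0.85, 0.65 and 1.07 on the log2 scale (edgeR adjusted p = 6.36e-11, 1.74e-07 and 7.41e-14). Ncoa3, a relative of Ncoa1, rose by 0.58 at 10 weeks (edgeR adjusted p = 2.18e-05). The PGC-1 coactivators, which drive mitochondrial genes, went the other way. Ppargc1a had 1.85 ± 0.215 CPM in villin-PPARD and 7.93 ± 1.38 CPM in WT mice at 55 weeks (SD, n = 5), a log2 difference of -2.08 (edgeR adjusted p = 1.05e-10), and Ppargc1b fell by 0.73 on the log2 scale at 25 weeks (edgeR adjusted p = 4.68e-05).

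Of 15 other corepressors, 3, 8 and 8 were called higher and 1 lower at each age, with median log2 differences of 0.14, 0.27 and 0.31, beside the same shares of all genes. With scaling by library size alone 13 were called higher and 1 lower at 55 weeks, and the medians of 25 and 55 weeks were 0.43 and 0.71. Tbl1x, a subunit of the NCoR complex, rose by 0.55 at 10 weeks and 0.74 at 25 weeks on the log2 scale (edgeR adjusted p = 6.38e-05 and 5.48e-06). Hdac3, the deacetylase of that complex, had 64.7 ± 2.59 CPM in villin-PPARD and 41.7 ± 1.90 CPM in WT mice at 55 weeks (SD, n = 5; log2 difference 0.64, edgeR adjusted p = 8.51e-08). Gps2, another subunit of it, fell by 0.68 on the log2 scale at 55 weeks (edgeR adjusted p = 3.90e-07). Nrip1, a ligand-dependent corepressor, rose by 0.73 at 25 weeks and 0.79 at 55 weeks (edgeR adjusted p = 0.000204 and 3.69e-06). Ctbp2 and Hdac1 rose by 0.52 and 0.51 at 10 weeks (edgeR adjusted p = 0.000181 and 0.00148), and Ctbp2 by 0.41 at 25 weeks (edgeR adjusted p = 0.00391). Without WT replicates 2 and 3 the 10-week difference of Hdac1 was 0.31 and missed the test (adjusted p = 0.0612).

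Of 31 other Mediator subunits, 6, 10 and 12 were called higher and 0, 1 and 2 lower at 10, 25 and 55 weeks, with median log2 differences of 0.07, 0.13 and 0.19, beside the same shares of all genes. Med15 had 79.7 ± 4.25 CPM in villin-PPARD and 55.7 ± 3.13 CPM in WT mice at 10 weeks (SD, n = 5; log2 difference 0.52, edgeR adjusted p = 8.38e-06). Med8 and Med10 rose there by 0.50 and 0.45 (edgeR adjusted p = 8.22e-05 and 0.000155). At 25 weeks Med19, Med13l and Med6 rose by 0.71, 0.48 and 0.54 (edgeR adjusted p = 0.000102, 0.00110 and 0.00144), and at 55 weeks Med14, Med23 and Med28 by 0.67, 0.51 and 0.48 (edgeR adjusted p = 5.41e-06, 1.91e-05 and 3.30e-05). With scaling by library size alone the 55-week count of Mediator subunits was 25 higher and 0 lower, and the medians of 25 and 55 weeks were 0.30 and 0.58.

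Other receptors that pair with RXR were tested for 11 of 13 genes. At 10, 25 and 55 weeks 4, 2 and 6 were called higher and 0, 1 and 3 lower, beside 34.0%, 39.6% and 59.3% of all tested genes. Their median log2 differences were -0.06, 0.04 and 0.26, beside -0.03, -0.01 and 0.03 over all tested genes. With scaling by library size alone the medians of 25 and 55 weeks were 0.20 and 0.67. Nr1h4, the bile acid receptor FXR, rose by 0.71 at 10 weeks and 0.70 at 25 weeks on the log2 scale (edgeR adjusted p = 5.89e-05 and 0.000246), and Nr1i2, the xenobiotic receptor PXR, by 0.61 at 10 weeks (edgeR adjusted p = 7.30e-05). Vdr, the vitamin D receptor, had 4.05 ± 1.09 CPM in villin-PPARD and 0.920 ± 0.345 CPM in WT mice at 55 weeks (SD, n = 5; log2 difference 2.14, edgeR adjusted p = 9.51e-08). The orphan receptor Nr4a2 fell by 1.74 and the thyroid hormone receptor Thra by 0.85 on the log2 scale at 55 weeks (edgeR adjusted p = 1.55e-13 and 1.29e-08), although Thra overlaps Nr1d1 on the opposite strand and their reads cannot be told apart here. By contrast, Nr4a1 rose by 1.16 at 25 weeks (edgeR adjusted p = 0.000233). Rara, the retinoic acid receptor alpha, changed sides: it differed by 0.48 at 10 weeks and by -0.47 at 55 weeks (edgeR adjusted p = 0.000220 and 7.83e-05), although the latest value was -0.06 with library-size scaling. Nr1h3, the oxysterol receptor LXRα, changed sides the other way, by -0.79 at 25 weeks and 0.60 at 55 weeks (edgeR adjusted p = 0.0249 and 0.0138). Its 25-week value missed the test with scaling by library size alone (-0.63, adjusted p = 0.0835) and under the replicate block (adjusted p = 0.0571). It also missed it without a filter (adjusted p = 0.0802), with only the groups compared (adjusted p = 0.0628) and with a library-group term (adjusted p = 0.0818).

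Another list held genes that bring fatty acids and retinoids to these receptors. Of 27 ligand-handling genes 23 were tested, and 4, 4 and 6 were called higher and 5, 8 and 15 lower at 10, 25 and 55 weeks, with median log2 differences of -0.09, -0.34 and -0.74, beside the same shares of all genes. With scaling by library size alone the medians of 25 and 55 weeks were -0.18 and -0.37. Lpl, the lipoprotein lipase that frees fatty acids, had 9.61 ± 1.33 CPM in villin-PPARD and 169 ± 23.8 CPM in WT mice at 55 weeks (SD, n = 5; log2 difference -4.13, edgeR adjusted p = 2.04e-16). The fatty acid transporter Cd36 fell by 4.27 and the binding protein Fabp3 by 5.44 on the log2 scale at that age (edgeR adjusted p = 5.67e-15 and 4.71e-15). Rdh10, which starts retinoic acid synthesis, rose by 1.23 at 10 weeks and 2.05 at 25 weeks (edgeR adjusted p = 4.38e-06 and 7.18e-09). Fabp5, a fatty acid binding protein known to deliver ligand to PPARδ, changed sides: it differed by 0.57, 0.34 and -0.69 at 10, 25 and 55 weeks (edgeR adjusted p = 0.000291, 0.0346 and 5.58e-06). The 25-week value missed the test under the replicate block (adjusted p = 0.0513) and under limma-voom (adjusted p = 0.0522). It also missed it with a library-group term (adjusted p = 0.0527) and with only the groups compared (0.28, adjusted p = 0.139). Aldh1a1, a retinoic acid synthesis enzyme, did so too, with 0.41 at 10 weeks and -0.997 at 55 weeks (edgeR adjusted p = 0.0157 and 1.57e-07). The 10-week call of Aldh1a1 was lost without WT replicates 2 and 3 (0.23, adjusted p = 0.266), with these summed as 1 library (adjusted p = 0.0571) and within either library group (adjusted p = 0.0621 and 0.301).

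Of 35 known PPAR target genes 31 were tested. At 10, 25 and 55 weeks 5, 5 and 4 were called higher and 7, 11 and 12 lower, beside 34.0%, 39.6% and 59.3% of all tested genes. The median log2 differences were -0.07, -0.15 and -0.29, beside -0.03, -0.01 and 0.03 over all tested genes. With library-size scaling the medians of 25 and 55 weeks were 0.02 and 0.11, and at 55 weeks 9 were called higher and 9 lower. Vnn1, a pantetheinase, rose at all ages, with 539 ± 60.8 CPM in villin-PPARD and 9.78 ± 3.48 CPM in WT mice at 55 weeks (SD, n = 5; log2 difference 5.77, edgeR adjusted p = 3.11e-14). Plin2, which coats lipid droplets, rose by 1.57 at 25 weeks (edgeR adjusted p = 2.54e-05), and Acsl1, which activates fatty acids, fell by 0.74 on the log2 scale at 10 weeks (edgeR adjusted p = 2.94e-05). Fabp3 and Cd36 stand in this list as well, and Fabp3 fell by 1.37 at 10 weeks and 1.57 at 25 weeks (edgeR adjusted p = 1.32e-05 and 1.05e-05). Cidec differed by 0.81, 0.60 and -0.48 at 10, 25 and 55 weeks (edgeR adjusted p = 0.00279, 0.0368 and 0.0431). Its 55-week value was -0.10 (adjusted p = 0.642) with library-size scaling, and its 10-week value missed the test without WT replicates 2 and 3 (0.56, adjusted p = 0.0639). Within the second library group the 10-week value missed it too (0.51, adjusted p = 0.332). The 25-week value of Cidec missed the test without a filter (0.62, adjusted p = 0.0624) and with the library-group term (0.52, adjusted p = 0.108). Acot1, an acyl-CoA thioesterase with close relatives that may share its reads, differed by -1.21 at 25 weeks and 1.82 at 55 weeks (edgeR adjusted p = 0.00606 and 4.78e-06). The parietal marker sums given beside Ppara were lower in villin-PPARD mice at each age, and the part of these cells in the list counts was not tested.

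**Figure D5:**
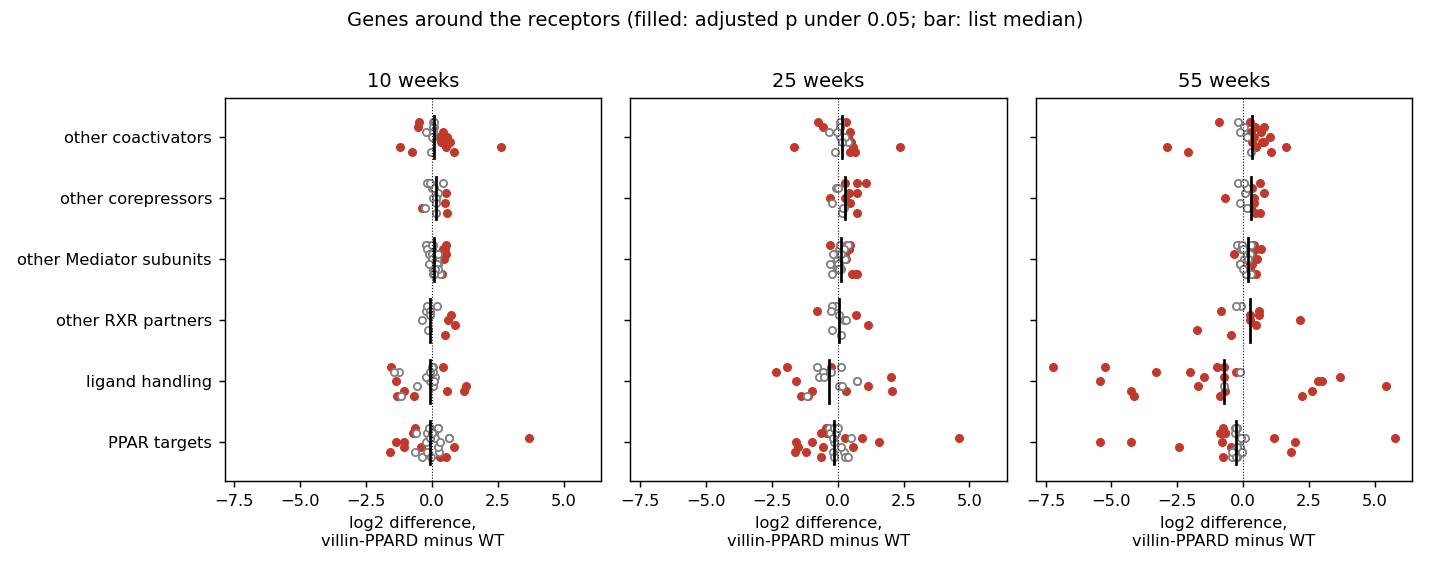
Log2 differences of villin-PPARD minus WT (x axes) for tested genes of 6 lists (rows) at 10, 25 and 55 weeks. Filled red points passed the edgeR test at an adjusted p under 0.05, open grey points did not, and black bars are list medians. At 55 weeks the ligand-handling median stood at -0.74 and the coactivator median at 0.34.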

How the data were processed

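The deposited table held raw read counts per gene symbol for 28 libraries. Per the submitters' processing notes, the authors used TopHat2 (2.0.14), HTSeq (0.6.1), DESeq2 (no version given) and the mm10 build, with no role stated for each. Per the labels' protocols, libraries were made from poly-A RNA with a TruSeq RNA kit, which keeps no strand information. The gene annotation behind the counts is not given in the sources used here. Groups came from the genotype and age labels. Library groups were read from the tags in the column names.

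Genes were filtered by edgeR's filterByExpr, scaled by TMM factors and fitted with all 28 libraries in 6 group means (edgeR 4.0.16, R 4.3.3). The genotype differences, age differences and their changes used the quasi-likelihood F test with Benjamini-Hochberg adjustment over 15812 genes. Ppard was also tested between genotypes at each age by exact permutation, with adjustment over the ages. The edgeR fit was tested on simulated data. CPM is the share of TMM-scaled library counts times 1000000. Total counts of 10982888 to 30891108 per library set the precision, reads carry no molecular identifiers, and counting intervals are exact 95% Poisson intervals. Positions, lengths and window sharing came from GENCODE M21 on GRCm38 and promoters from RefSeq. No figure or test used promoter letters.

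The alternatives were DESeq2 size factors, library size only, no filter, the DESeq2 Wald test (1.42.0), limma-voom with sample weights (3.58.1), a replicate block, only the groups compared, a library-group term or split, WT replicates 2 and 3 of 10 weeks summed or left out, stricter thresholds and each library left out. The library-group term was fitted without WT replicate 3 of 25 weeks, whose column name marks a replacement.

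The named genes are all 9 members, Vil1, the 3 genes of lowest adjusted p per list and genotype comparison, genes called in opposite directions at different ages, the 2 most abundant genes of marker lists where a result needed them, and the closest genes by correlation, at 5 CPM or more on average. Adipoq, Retn, Cfd, Plin1, Cidea and Nr1d1 were named after their values were seen. The members and lists were chosen with earlier results of these data known. Replicate numbers were not taken as pairs.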

Additional observations from a re-analysis of the deposited data

Results flagged for a closer look

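In 6 of 52 groups of 4 or 5 libraries, 1 library lay far from the rest. Chance gives about 1 in 20 for measured levels, a rate that is not meant for the 3 Rxrg groups, where 1 or 8 counts stood against 0 or 1. Rxra had 79.6 CPM in WT replicate 3 of 55 weeks, the next WT library having 96.0 CPM. Rxrb had 46.2 CPM in WT replicate 1 of 25 weeks, the next having 33.6 CPM, and 35.5 CPM in villin-PPARD replicate 1 of 55 weeks, the next having 32.5 CPM. Rxrg had 0.431 CPM in WT replicate 4 of 25 weeks, the next having 0.0491 CPM. It had 0.0373 CPM in villin-PPARD replicate 4 of 55 weeks and 0.050 CPM in WT replicate 1 of 55 weeks, where the other libraries of these groups were at 0.

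The genotype difference itself differed between ages for 4 genes by the edgeR test of the change. Between 55 and 10 weeks it changed by -0.33 for Ppard, -1.99 for Ppara, -0.59 for Rxra and 0.32 for Ncoa1 on the log2 scale. Between 55 and 25 weeks it changed by -2.07 for Ppara and -0.52 for Rxra. All 55-week libraries are in the second library group and none of the 25-week ones is, so age and library group cannot be told apart there.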

How the results depend on the processing

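Of 556 values under alternatives other than leaving out 1 library, 439 counted as kept, 44 lost the threshold, 10 gained it, 8 turned round and 55 moved. Of 537 with 1 library left out the numbers were 492, 32, 5, 4 and 4. A gene's difference counted as kept where its direction and side of the threshold stayed. A number of members called counted as kept where it changed by at most 1.5-fold, so it could still differ. A share within a family counted as moved where it changed by its SD or more. Ppara at all 3 ages kept its call throughout. The causes were not tested.

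Ppard lost its call at 10 weeks within the second library group (0.44 on the log2 scale) and, by construction, at a 1.5-fold minimum (0.56). At 25 weeks it lost it with only the groups compared (0.25), at an adjusted p under 0.01 and at 1.5-fold (0.31). At 55 weeks it lost it under the replicate block (0.23, adjusted p = 0.0604), at 0.01 and at 1.5-fold (0.23). With 1 library left out Ppard ran from 0.51 to 0.61, 0.23 to 0.37 and 0.19 to 0.26 at 10, 25 and 55 weeks. Its call was lost at 25 weeks without villin-PPARD or WT replicate 4, and at 55 weeks without villin-PPARD replicate 2, 3 or 4 or WT replicate 3 or 5.

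With library size only, signs turned for Ncoa1 at 25 weeks (0.10), Rxrb (0.35) and Ncor1 (0.40) at 55 weeks, Ppard in villin-PPARD mice at 55 against 10 weeks (0.19) and the change of its genotype difference (0.0303). Ncor1 at 55 weeks, near 0, also turned without a filter (0.0175), under limma-voom (0.10) and under the replicate block (0.0170), and ran from -0.0686 to 0.10 with 1 library left out.

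The number of members called at 10 weeks was 5 by limma-voom and 1 within the second library group. At 25 weeks it was 2 with only the groups compared and 2 at 1.5-fold. At 55 weeks it was 3 under the replicate block, 3 at 0.01 and 1 at 1.5-fold. Over all alternatives it ran from 1 to 5 at 10 weeks, from 2 to 6 at 25 weeks and from 1 to 7 at 55 weeks. In villin-PPARD mice it was 1 by DESeq2 and 2 by limma-voom for 25 against 10 weeks, 6 by library size for 55 against 10 weeks, and 5 by library size and 1 at 1.5-fold for 55 against 25 weeks. In WT mice it was 1 by DESeq2 and 1 by limma-voom for 55 against 10 weeks. For the change of the genotype difference it was 2 without a filter, under the replicate block, at 0.01 and at 1.5-fold for 55 against 10 weeks, and 1 at 1.5-fold for 55 against 25 weeks. With 1 library left out it ran from 3 to 5 at 55 weeks (lower without villin-PPARD replicate 2 or 3 or WT replicate 3) and from 0 to 1 in WT mice for 55 against 10 weeks (1 without WT replicate 2 of 55 weeks). The correlations of same-numbered libraries ran from -0.42 to 0.23, so the numbers were not taken as pairs. Over all genes, the share of calls that were higher moved with library size only to 61.7%, 74.5% and 78.9% at 10, 25 and 55 weeks, against 52.5%, 52.99% and 53.4%. Of 27 named pathway genes called at 10 weeks, 15 missed the test within the second library group of 2 against 2 libraries, 2 within the first and 4 without WT replicates 2 and 3. Depth limits Rxrg and the 55-week level of Ppara most.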
